A study of Cricetiscus sungorus with 216 samples.

Results

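In the mediobasal hypothalamus (MBH) of male Djungarian hamsters, 154 genes had a low median level in groups in the middle of a long stay in short days. Their medians were higher in a group kept in long days and in groups late in short days, all of different hamsters. The genes were chosen by their own MBH values, from 20156 genes in the table. A member was read in at least 27 of 54 MBH libraries, and its median in long days (LD, 6 hamsters) and its median at 28 and 32 weeks of short days (SD, 12 hamsters) were both at least 5 CPM (counts scaled to a common library total) and at least 2 times the median of the 18 hamsters at 8, 12 and 16 weeks SD. Tshb, Cga, Nmu and Upp2 were left out by the rule. Here the 8, 12 and 16wk groups are called mid SD and the 28 and 32wk groups late SD. Of 12044 genes read in at least 27 libraries, 7652 had both outer medians at or above 5 CPM, and the 154 members were 1.28% of the 12044. Since these libraries chose the members, all values of LD, mid SD and late SD in the MBH are a description, with no test.

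The hamsters were adults of an unmodified colony (Phodopus sungorus, Siberian hamster in the labels), kept in LD or moved to SD for 4, 8, 12, 16, 20, 24, 28 or 32 weeks, with 6 in each of the 9 groups. All 54 gave tissue of the MBH, the dorsomedial hypothalamus (DMH), the pituitary gland and the paraventricular nucleus (PVN), which made 216 nanopore cDNA libraries. The tissues were punched or dissected whole, so that fewer cells of a type and less RNA per cell cannot be told apart. The hypothalamic neuron markers (10 of 10 in the table) had a summed median of 1277 CPM in LD and 1284 CPM in mid SD, and markers of arcuate and mediobasal neurons (11 of 11 in the table) had 870 and 669 CPM, with Ghrh at a median of 0 in both. Reads were matched to the mouse genome, so a level is compared only with the same gene in other libraries.

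The MBH holds the arcuate nucleus and the median eminence, and the floor of the third ventricle there is lined by tanycytes, elongated ependymal cells that control local thyroid hormone and retinoic acid. In seasonal rodents, longer nights lengthen the melatonin signal to the pars tuberalis, which sets thyrotropin and so the tanycytes' deiodinases. Small hamsters held in short days for many months stop responding to them and return to the summer state without any change of light.

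MBH libraries held between 5996 and 13208364 estimated counts, with a median of 1422836. Gm32262, a predicted gene, took 8.33% to 65.7% of them and was left out of the totals. A set of 12 genes, among them Bc1, a short neuronal non-coding RNA, moved together over the libraries and took 1.82% to 68.8% of the remaining counts. Their share had a median of 9.13% in LD, 33.3% in mid SD and 28.2% in late SD, and 5 of 6 LD, 4 of 18 mid SD and 3 of 12 late SD libraries had few Bc1 counts (under 0.3 of those of Akap5). Over the 7652 genes the median log2 difference of mid SD from LD was -0.18 on the scale of CPM + 1 and -0.03 with TMM scaling. With the 12 genes left out of the totals it was 0.11, so the direction of the median gene turned with the scaling. The members' median was -1.65, -1.33 and -1.27 on the same 3 scales, by their choice. The part of these shares in the members' values was not tested.

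**Figure D1:**
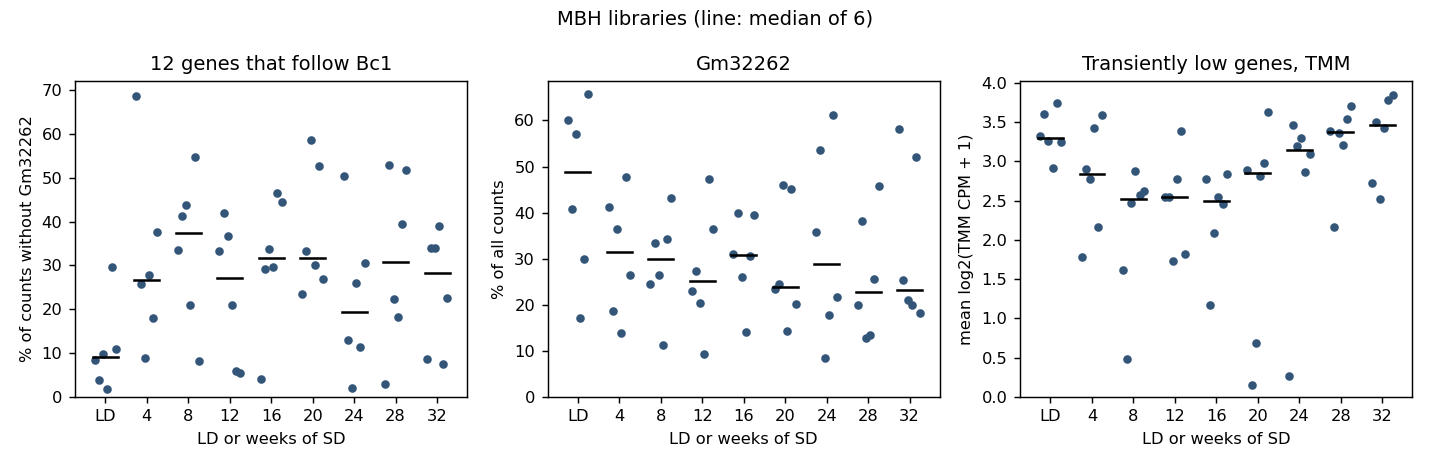
MBH libraries by group, 6 hamsters each, with LD on the left and weeks of SD to the right. Panels give the percentage of counts in the 12 genes that follow Bc1, the percentage in Gm32262 and the mean log2(TMM CPM + 1) of the 154 genes, with a line at the group median. The Bc1 share has its lowest group median in LD, and the 154 genes have median values of 3.29 in LD, 2.54 in mid SD and 3.40 in late SD.

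Most members were sparsely read genes with many isoforms. A member was read in 40 of 54 libraries in the median, against 51 for the 7652 genes that met the level condition, and Crabp1 alone was read in all 54. The members had a median of 9 isoforms (highest 53, in Wiz) against 4. In 5485 values that came from more than 1 isoform, 48.7% gave the same count to each isoform read, so that a member's CPM is not a number of reads. Median levels over the members were 12.3 CPM in LD, 2.94 in mid SD and 10.7 in late SD, and 56 of the 154 had an LD median below 10 CPM. With the opposite rule (mid SD at least 5 CPM and at least 2 times both outer medians), 43 genes or 0.357% of the 12044 were found, with a median of 10 isoforms and 38 libraries.

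In no member did every LD library, or every late SD library, lie above every mid SD library. The late median was above the LD median in 59 members. The median ratio of LD to mid SD was 3.61 and of late to mid SD 2.99 over the 146 members with a mid SD median above 0. The group median was at most 0.5 of the LD median in 131 members at 8 weeks (14.6% of the 7652 genes), 93 at 12 weeks (4.63%) and 123 at 16 weeks (9.58%), all from values that the rule used. A member's pooled mid SD median can thus be low while the median of a single week was not. At the edge of the rule stood Gpr50 (smaller ratio 2.001), Gpr146 (2.011) and Usp28 (2.015) inside, and D630023F18Rik (1.987), Usp30 (1.978) and Ess2 (1.978) outside.

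**Figure D2:**
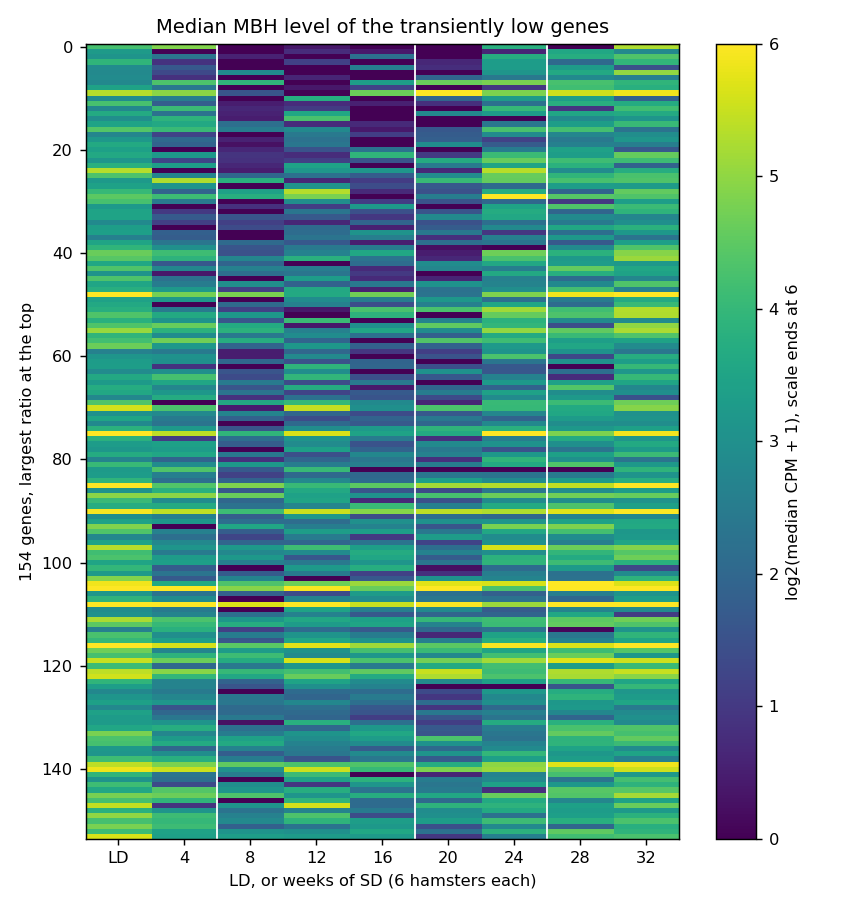
Median MBH level of each of the 154 genes (rows, largest ratio at the top) in the 9 groups of 6 hamsters (columns), as log2(median CPM + 1). The columns of 8, 12 and 16 weeks SD were low by the choice of the genes, and at 20 weeks, which entered the choice only through the number of libraries read, the median over the genes was 3.62 CPM. At 20 weeks 25% of the 7652 genes were also at most 0.5 of their LD median.

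Genes of tanycytes and of retinoic acid handling were among the members. For all gene lists, the share to read a count against is 2.01%, the 154 members among the 7652 genes at the level condition. No list was tested, and lists built on symbol prefixes miss genes of the same function with other names. Crabp1, a cytosolic retinoic acid binding protein, had 36.3 to 120 CPM in LD (median 57.3), 8.74 to 92.4 in mid SD (median 24.3) and 18.7 to 210 in late SD (median 62.7). Its lowest group was 4 weeks SD, with 1.06 to 35.3 CPM and a median of 11.6. Gpr50, an orphan receptor related to the melatonin receptors and known from tanycytes, had 21.7 to 104 CPM in LD (median 48.9), 0 to 38.1 in mid SD (median 9.22) and 1.80 to 56.3 in late SD (median 18.5). Its late level stood well under LD, and the 20wk median of 0.966 CPM, with 3 of 6 libraries read, was the lowest of its groups. The groups overlapped for both genes. The summed level of the tanycyte list (12 of 12 markers in the table) had medians of 559, 279 and 322 CPM in LD, mid SD and late SD, and without Crabp1 and Gpr50 of 472, 255 and 250. Of 7 tanycyte markers that met the level condition, 2 were members. Of the retinoic acid list, 2 of 5 were.

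The other retinoic acid member was Ttr, transthyretin, which carries thyroid hormone and retinol binding protein and is made above all by the choroid plexus. It had 0 to 39.4 CPM in LD (median 10.4), 0 to 17 in mid SD (median 1.22) and 0 to 60.1 in late SD (median 5.74), and was read in 4 of 6, 10 of 18 and 10 of 12 libraries. Enpp2, autotaxin, a lysophospholipase D of the choroid plexus and of oligodendrocytes, had 29.6 to 162 CPM in LD (median 80.1), 0 to 176 in mid SD (median 16.7) and 0 to 89.2 in late SD (median 62.9). Some mid SD hamsters reached the LD range while 4 of 18 had no Enpp2 count. The other choroid plexus markers together had medians of 83.7, 44.9 and 37.2 CPM in the same order, and Clic6, Kl, Otx2 and Slc4a5 had a median of 0 in each. Choroid plexus carried over was not tested.

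**Figure D3:**
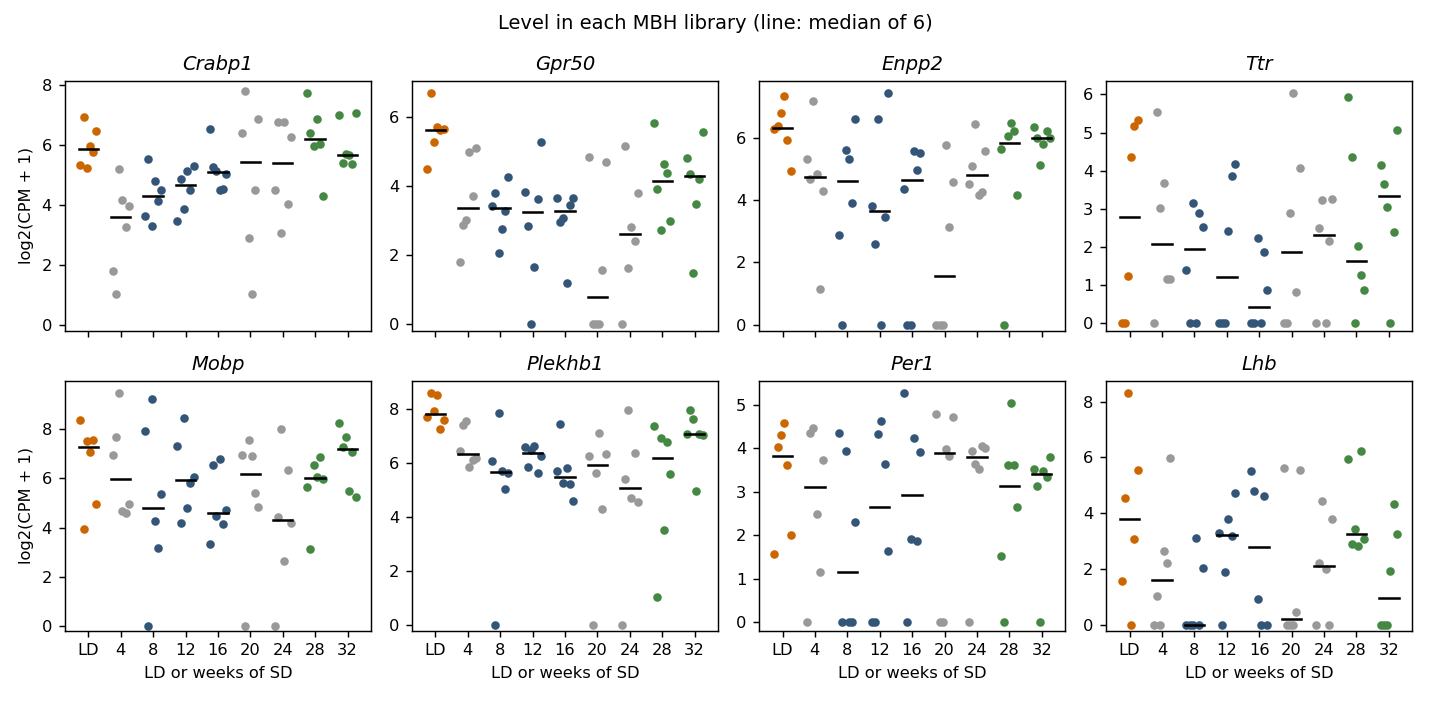
Level of 8 of the genes in each of the 54 MBH libraries as log2(CPM + 1), by group (LD orange, 8 to 16 weeks SD blue, 28 and 32 weeks SD green, other weeks grey), with a line at the median of 6. Crabp1 was lowest at 4 weeks SD (median 11.6 CPM) and Gpr50 at 20 weeks (0.966 CPM).

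Myelin genes had some of the highest CPM values, which are not per length and so do not order the genes by transcript number. Mobp, a structural protein of central myelin, had 14.2 to 332 CPM in LD (median 158), 0 to 608 in mid SD (median 33.6) and 7.63 to 308 in late SD (median 79.3). Plekhb1, a membrane protein of glia and photoreceptors, had 152 to 387 CPM in LD (median 225), 0 to 229 in mid SD (median 53.3) and 1.09 to 247 in late SD (median 125). In Plekhb1 the lowest LD value (152 CPM) lay above the mid SD median (53.3). The highest mid SD value (229) lay above the LD median (225), so the groups overlapped. Mobp was spread over the whole range in each. The oligodendrocyte list (10 of 10 markers in the table), summed without Mobp, also had a lower median in mid SD than in LD and late SD. Its median was 1842 CPM in LD (523 to 3890), 690 in mid SD (181 to 5219) and 1083 in late SD (229 to 2651). At 24 weeks SD the list did not go with these genes. Its median there was 1108 CPM, while Mobp (18.8) and Plekhb1 (33.4) lay below their mid SD medians. Of 4 oligodendrocyte markers with both outer medians at 5 CPM or more, only Mobp met the rule. How much white matter each punch held was not tested.

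Some members code for ion channels and other neuronal signalling proteins. Cacna1d, the pore of an L-type calcium channel, had 0 to 123 CPM in LD (median 39.4), 0 to 270 in mid SD (median 0.861, read in 11 of 18) and 0 to 157 in late SD (median 48.3). Scn8a, a voltage-gated sodium channel, had medians of 24.4, 8.74 and 20.0 CPM in LD, mid and late SD, and Kcna6, a potassium channel, 12.9, 4.41 and 8.93. With these, 3 of 60 ion channel genes at the level condition were members. Itpr1 and Ppp1r1b, which follow, are in no ion channel or transmitter list and are given for their level and for the phosphatase list. Itpr1, the calcium release channel of the endoplasmic reticulum, had 60.5, 24.3 and 66.0 CPM, and Grm7, a presynaptic glutamate receptor, 10.6, 2.71 and 12.7. Ppp1r1b, the dopamine-regulated phosphatase inhibitor DARPP-32, was read in all 36 libraries the rule used, with 29.2 to 158 CPM in LD (median 41.4), 10 to 97.5 in mid SD (median 19.6) and 24.7 to 122 in late SD (median 51.3). The summed hypothalamic neuron markers had 1277, 1284 and 1204 CPM in the same order, and the arcuate and mediobasal neuron markers 870, 669 and 573. The neuron content of each punch was not tested.

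Of reproductive and clock genes, Kiss1r, the receptor of kisspeptin, had 0 to 22.8 CPM in LD (median 7.80), 0 to 13.7 in mid SD (median 3.68) and 0 to 26.5 in late SD (median 9.17). It was the member among 7 hormone and neuropeptide receptors at the level condition. None of 20 hypothalamic neuropeptide genes was a member, where Nmu of that list was left out by the rule. Per1, a core clock gene, had 1.98 to 22.7 CPM in LD (median 13.3), 0 to 37.8 in mid SD (median 3.37) and 0 to 31.8 in late SD (median 9.58), and was the only member among 15 clock genes. Lhb, the beta subunit of luteinizing hormone, is a product of pituitary gonadotropes: it had 0 to 318 CPM in LD (median 14.8), 0 to 44.3 in mid SD (median 2.95) and 0 to 74.5 in late SD (median 7.03). Its group medians were 0, 8.42 and 12.4 CPM at 8, 12 and 16 weeks, and 8.65 and 1.44 at 28 and 32 weeks. The 12wk and 16wk medians thus lay above the late SD median, and the 32wk median below the mid SD median. The pituitary list (11 of 12 markers in the table) without Lhb had medians of 366, 192 and 250 CPM, with Prl, Gnrhr, Pitx1 and Tbx19 at a median of 0 in each. The list also holds Pomc, a marker on the arcuate neuron list too, and Chga, which is on the hypothalamic neuropeptide list. The sum is thus not a measure of pituitary cells alone. Pituitary tissue carried over was not tested.

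The 8 members with a mid SD median of 0 led the ratios, and all were read in at most 8 of 18 mid SD libraries. They were Wiz, a zinc finger partner of histone methyltransferases (LD median 17.9 CPM, late 8.25), Fcgr3, an immunoglobulin receptor of microglia and macrophages (8.59 and 7.74), Zfp13, a zinc finger gene (7.59 and 16.1), Cdon, a co-receptor of hedgehog signals (14.1 and 7.49), Mmp16, a membrane-bound matrix metalloproteinase (6.47 and 6.27), Pprc1, a coactivator of mitochondrial genes (6.07 and 20.4), Bglap3, an osteocalcin-related gene (6.42 and 6.04) and Wdr4, a tRNA methylation factor (5.96 and 16.7). None of these 8 separated the groups: Wiz reached 165 CPM in a mid SD library and was at 0 in an LD library. Wdr4 had medians of 14.3 CPM at 8 weeks, 0 at 12 and 9.27 at 16, so its 8wk and 16wk groups lay above LD. Pprc1 had 6.58 CPM at 8 weeks, also above LD. Next in the ratio came Rmdn2, a microtubule-associated protein (9.95, 0.199 and 13.6 CPM in LD, mid and late SD), Cacna1d with the values above, Csmd2, a synaptic membrane protein (6.61, 0.199 and 7.77), Slco2b1, an organic anion transporter (18.1, 0.396 and 12.0), Ezh2, the methyltransferase of Polycomb (5.91, 0.199 and 6.39), Smug1, a DNA repair glycosylase (11.7, 0.477 and 11.5) and Ankrd13b, a ubiquitin-binding protein (6.84, 0.397 and 7.18). At 12 weeks the medians of Csmd2 (12.4 CPM) and Ankrd13b (18.5) lay above LD.

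Among the genes with high LD medians, Kat6b, a histone acetyltransferase, had 75.8, 30.7 and 70.6 CPM in LD, mid and late SD, and Nbeal1, a protein of the neurobeachin family, 70.1, 16.9 and 47.7. Grifin, a galectin-related protein, had 63.3, 22.9 and 58.1. Tet2, which oxidises methylated cytosine, had 7.49, 3.45 and 7.21. Its group medians were 0 CPM at 8 weeks, 9.91 at 12 and 13.5 at 16, so of these only the 8wk group lay below LD. It was the member among 61 genes of a chromatin and DNA methylation list by symbol prefix. That list does not hold Ezh2, Kat6b or Wiz, which are members too. The list of cilium symbol prefixes gave 3 of 76 (Cfap54 with 10.1, 0.651 and 15.6, Ccdc134 with 11.6, 0.531 and 5.09, Ccdc171 with 8.69, 2.43 and 5.78). The prefix Ccdc names a protein fold and not the cilium, and the list leaves out Ttc21b, a member of intraflagellar transport. Ubiquitin ligases and proteases gave 5 of 203: Rnf144a (28.1, 2.46 and 5.83), Usp28 (26.7, 3.75 and 7.55), Usp35 (13.1, 1.87 and 6.43), Ube3b (10.2, 1.04 and 6.29) and Trim41 (6.16, 0.949 and 5.70). Zinc finger genes gave 3 of 129, with Zfp800 (24.2, 2.79 and 9.12) and Zfp110 (5.82, 2.39 and 7.61) beside Zfp13.

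The counts of the remaining lists follow. There were 0 of 91 genes of oxidative phosphorylation, 0 of 59 chaperones, 0 of 16 genes of lipid and sterol synthesis and 0 of 27 of interferon and antigen presentation. Collagen and matrix genes gave 1 of 24 (Mmp16), solute carriers 1 of 111 (Slco2b1) and transmitter receptors 1 of 35 (Grm7). Ribosomal protein names gave 1 of 188, Rps6kc1, a kinase-like protein that shares the prefix but is no part of the ribosome (17, 7.09 and 17.3 CPM). In the same way Slitrk3, a synaptic adhesion protein, stood for the guidance list (1 of 27, with 18.3, 5.18 and 12.0 CPM), and Rbms1, an RNA-binding protein, for splicing (1 of 119, with 19.4, 3.94 and 16.1). Vps37c, of the sorting complex ESCRT, was 1 of 161 trafficking genes (9.74, 2.63 and 10), and predicted genes gave 4 of 343: 1700030K09Rik (5.73, 0.531 and 6.68), 1700066M21Rik (9.65, 4.12 and 9.03), Gm12258 (8.93, 3.17 and 9.49) and Gm3787 (8.08, 2.67 and 6.29).

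The choice of genes depended on the scaling of the libraries. With TMM totals 125 genes met the rule, 93 of them members, and without the 12 genes that follow Bc1 in the totals, 159 did, with 97 members. When Gm32262 stayed in the totals only 58 genes were left, with 54 members, and when the highest isoform stood for each gene 69 were, with 32 members. The 39 members kept under all 3 other scalings included Enpp2, Mobp, Per1, Cacna1d, Slco2b1, Wiz and Rbms1, and 3 of them, Enpp2, Nbeal1 and Pyroxd1 (an oxidoreductase with 10.9, 2.02 and 8.90 CPM), were also kept with the highest isoform. Crabp1 was kept by none of the 3 scalings but by the highest isoform. In the 17 libraries with few Bc1 counts (5 LD, 4 mid SD, 3 late SD), 39 of the 154 had both outer medians at least 2 times mid SD and 91 had both above it. In the 37 others (1 LD, 14 mid SD, 9 late SD), these counts were 106 and 138, with a single LD library. Over the 7652 genes, both outer medians lay above mid SD in 19.1% in the libraries with few Bc1 counts and in 45.9% in the others. All these libraries took part in the choice, so the counts describe the members and support nothing.

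**Figure D4:**
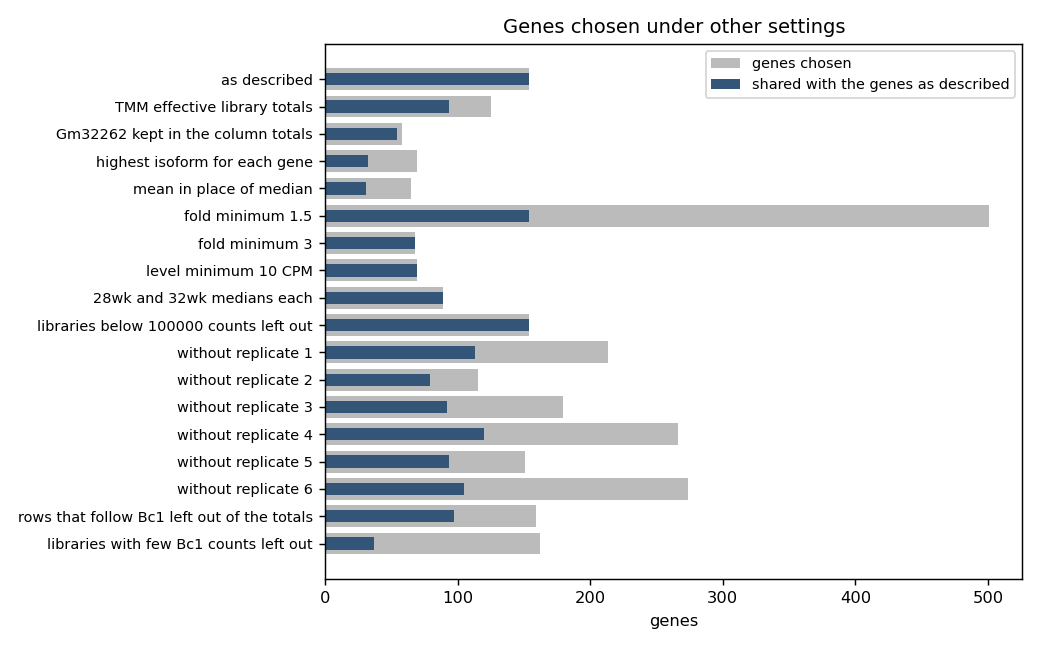
Number of genes that met the rule under each other setting (grey bars) and how many of them were among the 154 (blue bars). Keeping Gm32262 in the totals gave 58 genes with 54 shared, and a fold minimum of 1.5 gave 501 genes.

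The 18 MBH libraries at 4, 20 and 24 weeks SD took part in the choice only through the number of libraries in which a gene was read. The 4wk median was at most 0.5 of the LD median in 76 members (8.74% of the 7652 genes), the 20wk median in 117 (25%) and the 24wk median in 57 (5.33%), where LD itself was used by the rule. Medians over the members were 6.78 CPM at 4 weeks, 3.62 at 20 weeks and 8.77 at 24 weeks. A 20wk library held 5996 counts with 4 members read, and a 24wk library 71577 counts with 9 read.

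Differences among these 3 groups were tested in edgeR's quasi-likelihood test over 12038 genes. Of the 154 members, 0 passed an FDR of 0.1 at 20 against 4 weeks, and 0% of all genes did. An unadjusted p below 0.05 was found for 4 members and 2.62% of all genes, and the members' median log2 difference was -0.16 against -0.04 over all genes. At 24 against 20 weeks 0 passed (0% of all genes), 1 member and 1.8% of all genes had an unadjusted p below 0.05, and the medians were 0.16 and 0.04. At 24 against 4 weeks 0 passed (0% of all genes), with 8 members and 2.6% of all genes at an unadjusted p below 0.05 and medians of 0.08 and 0.01. DESeq2's Wald test passed 0 members in each, with 4, 1 and 7 at an unadjusted p below 0.05 (2.85%, 1.69% and 2.71% of all genes). No difference of a member between these weeks was detectable by these tests.

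The smallest p among the members belonged to Crabp1. Its 24wk libraries had 7.33 to 108 CPM (median 48.5) and its 20wk libraries 1.05 to 221 (median 52.2), against 1.06 to 35.3 at 4 weeks. Both later groups had higher medians than 4 weeks and overlapped it. The 20wk group includes the library of 5996 counts (4532 without Gm32262), in which a single count makes 221 CPM. The top of the 20wk range can thus be a single count, and the 20wk median takes that library in. The log2 difference was 2.04 (standard error 0.59) at 24 against 4 weeks and 1.87 (0.60) at 20 against 4 weeks. The adjusted p was 1 for both in edgeR.

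The next members by p in each contrast are given with the log2 difference and its standard error, and each had an adjusted p of 1 in edgeR. At 24 against 4 weeks they were Cyp2j6, a cytochrome P450 of arachidonic acid (-2.41, 1.01), Wnt5b, a Wnt ligand (2.63, 1.20) and Mobp (-2.13, 0.97). Mobp had a median of 76.8 CPM at 4 weeks and 18.8 at 24 weeks. At 20 against 4 weeks they were Cntrl, a centrosome protein (-4.64, 1.65), Nrf1, a regulator of mitochondrial genes (1.69, 0.81) and Gpr146, an orphan receptor (-1.06, 0.53). At 24 against 20 weeks, Gpr146 had 1.29 (0.53), Lcorl, a transcription corepressor, 1.90 (1.02), Ttr -2.13 (1.22) and Acox3, a peroxisomal oxidase, -1.56 (0.91). Gpr146 thus had a low 20wk median of 3.70 CPM between 9.93 at 4 weeks and 13.5 at 24 weeks.

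**Figure D5:**
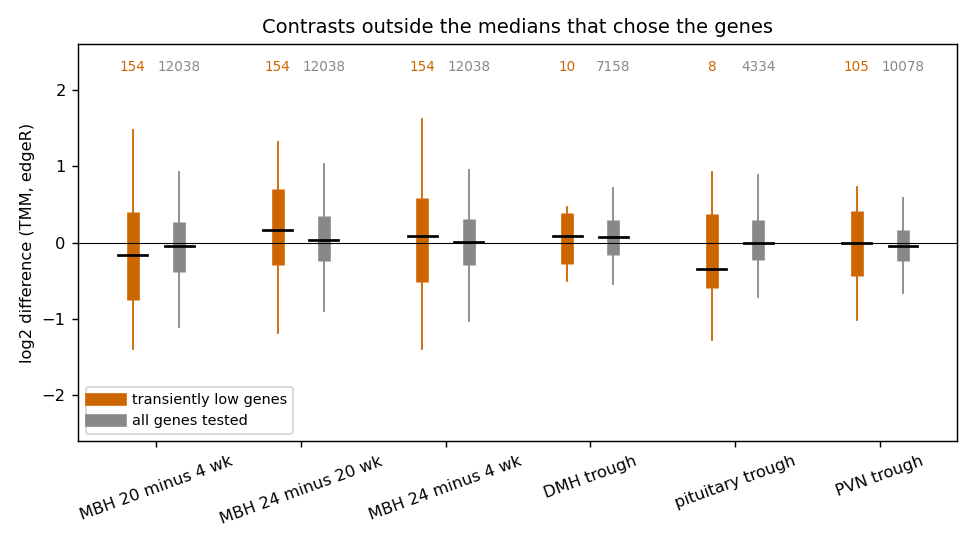
Log2 differences (TMM, edgeR) in groups and tissues whose levels did not choose the genes, for the 154 genes as far as tested (orange) and all genes tested (grey), with numbers of genes at the top. Thick bars span the 25th to 75th percentile, thin lines the 5th to 95th, and black marks the median. The medians of the orange bars lie between -0.34 and 0.16.

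In the other tissues of the same hamsters, the mid SD groups were set against the mean of LD and late SD. The DMH and the pituitary gland could test few members: 10 and 8 were read in at least 27 libraries, while 105 were in the PVN. In the DMH 0 of 10 passed (0% of 7158 genes), and 0 had an unadjusted p below 0.05 (2.44% of all genes). In the pituitary gland 0 of 8 passed (0.0231% of 4334 genes) and 1 had an unadjusted p below 0.05 (3.74% of all). In the PVN 0 of 105 passed (0.00992% of 10078 genes) and 7 had an unadjusted p below 0.05 (3.86% of all). The members' median log2 difference was 0.08 in the DMH, -0.34 in the pituitary gland and -0.01 in the PVN, against 0.07, 0.00 and -0.04 over all genes. DESeq2's Wald test passed 0 members in each tissue, with 0, 1 and 5 at an unadjusted p below 0.05 (1.42%, 2.88% and 2.3% of all genes). In edgeR the DMH members' median was -0.58 for mid SD minus LD and -0.60 for late minus mid SD (all genes -0.10 and -0.20). Each was negative in 8 of 10 members, and 0 passed. A fall that goes on past mid SD gives a value near 0 against the mean of LD and late SD. In the same order the members' medians were -0.27 and 0.23 in the pituitary gland and -0.01 and 0.13 in the PVN.

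In the pituitary gland the member with the smallest p was Lhb, in the tissue that makes it. It had 1384 to 2345 CPM in LD (median 2119), 729 to 2339 in mid SD (median 1472) and 1179 to 2830 in late SD (median 1727). The mid SD median was the lowest and the ranges overlapped. The difference of mid SD was -0.49 on the log2 scale (standard error 0.17, adjusted p of 1 in edgeR). Mid SD differed from LD by -0.58 (0.23) and late from mid SD by 0.41 (0.18). After it came Itpr1 (-1.47, 0.82), Hectd2, a ubiquitin ligase (0.87, 0.57), and Rbms1 (0.95, 0.72), also with an adjusted p of 1 in edgeR.

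In the PVN the smallest p belonged to Rbms1 (-1.35, standard error 0.51), Scrn3, a secernin (-1.35, 0.52), Ltbp1, which binds latent TGF-beta (-1.31, 0.57) and Ttc21b, of intraflagellar transport (-1.07, 0.47). All 4 had adjusted p of 1 in edgeR. Rbms1 had 0 to 124 CPM in LD (median 20.6), 0 to 135 in mid SD (median 11.2) and 0 to 72.4 in late SD (median 23.6) there, and its value was of the opposite sign in the pituitary gland, a contrast between tissues that was not tested. Per1 had a difference of -1.04 (0.49, adjusted p of 1 in edgeR) there, with medians of 3.51, 0 and 4.73 CPM.

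For tanycyte, choroid plexus and myelin members no difference was detectable in the other tissues at this depth. Crabp1 had a PVN difference of -0.24 (standard error 0.39) with medians of 9.56, 10.6 and 14.5 CPM, and was read in 16 DMH libraries. Gpr50 was read in 7 libraries of the DMH and 7 of the PVN. Mobp had 0.02 (0.60) in the DMH and -0.53 (0.46) in the PVN, and Enpp2 0.40 (0.62) in the DMH, where its medians were 34.3, 4.23 and 0 CPM. Late from mid SD, Enpp2 differed by -1.83 (0.81) in the DMH. Plekhb1 had 0.38 (0.63) in the DMH and -0.11 (0.40) in the PVN. In the DMH the smallest p was that of Grifin (0.44, 0.32), followed by Cdr1, a neuronal antigen gene (-0.65, 0.60), and Hexdc, a hexosaminidase (0.48, 0.57). The adjusted p of all these was 1 in edgeR.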

How the data were processed

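Whole tissue of 54 hamsters was sequenced as nanopore cDNA. The authors called bases with guppy, trimmed and filtered reads with Porechop and Filtlong, used Minimap2 with the mouse genome as the reference for hamster reads, and left out lowly expressed transcripts. For the pituitary gland the methods name a direct cDNA kit and the labels a PCR kit. The deposited values are estimated counts (expected counts per isoform from Salmon, not normalized), in 1 table per tissue, and 0 columns were left unmapped. The labels give the same hamster's tissues, and number hamsters from 1 to 6 within a group. Nothing marks PCR copies, so a count is not a number of molecules.

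Counts were summed over the isoforms of a gene symbol, and CPM used column totals without Gm32262. For tests, sums were rounded and genes read in at least 27 of 54 libraries of a tissue entered a model of 9 groups in edgeR 4.0.16 (quasi-likelihood F-test, edgeR 3 form, TMM) under R 4.3.3, with BH-adjusted p over all genes tested. The contrast in DMH, pituitary gland and PVN was the mean of 8, 12 and 16wk SD minus the mean of LD and of 28 and 32wk SD. DESeq2 1.42.0 was an alternative, and fits were tested on simulated data. The standard error is the difference divided by the root of F. Members and lists were chosen with earlier results of these data known. Text names the 15 members of largest ratio, the 8 of highest LD median, list members, the smallest p of each contrast and the edge of the rule; Pyroxd1 was named after its values were seen. The lists not given in the report held 0 members, except the phosphatase list with 1 of 77 (Ppp1r1b). Among them, the list of the pars tuberalis and thyroid hormone names Tshb, Cga, Nmu and Upp2, which could not be members by the rule. The 22 genes looked at for stray libraries and the settings on Bc1 were chosen after the values were seen.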

Additional observations from a re-analysis of the deposited data

Results flagged for a closer look

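Single libraries stood far from the other 5 of their group (the gap to the next value, over the group's range, passed Dixon's limit for 6 values) in 21 of the cases looked at, which were 22 of the named genes in LD and at 4, 20 and 24 weeks SD, 88 groups in all. Chance flags about 1 in 20 groups of well-behaved values, and these values are skewed counts with many zeros. In LD, Gpr50 reached 104 CPM in replicate 2 (next 51.9), Grifin 185 in replicate 4 (next 69), Lhb 318 in replicate 3 (next 46.3) and Ppp1r1b 158 in replicate 2 (next 72.1). At 4 weeks SD, Mobp reached 716 CPM (next 205), Enpp2 145 (next 39.2) and Kat6b 138 (next 55.6), all in replicate 3, while Ttr with 45.8 (next 11.8) and Grm7 with 41.5 (next 10.4) were high in replicate 2 and Lhb with 62.9 (next 5.23) in replicate 6. At 20 weeks, Ttr had 65.2 CPM in replicate 4 (next 15.8), Ppp1r1b 42.9 (next 15.6), Ezh2 35.9 (next 0.386) and Wiz 32.4 (next 0) in replicate 6, and Grm7 221 in replicate 2, the library of 5996 counts (next 10.2). At 24 weeks, Gpr50 had 34.8 CPM in replicate 2 (next 12.9), Mobp 255 (next 80.8) and Plekhb1 246 (next 82.5) in replicate 3, and Wiz 156 in replicate 5 (next 55.5), while Per1 and Nbeal1 were at 0 in replicate 1, the library of 71577 counts (next 10.5 and 60.3).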

How the results depend on the processing

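The number of genes that met the rule was 154, and it moved by over 1.5 times under these settings: 58 with Gm32262 kept in the totals, 69 with the highest isoform, 65 with means in place of medians, 501 and 68 with a fold minimum of 1.5 and 3, 69 with a level minimum of 10 CPM, and 89 with the 28wk and 32wk medians each held to the rule. Without each replicate number in turn it ranged from 115 to 274, with 266 without replicate 4 and 274 without replicate 6, and 30 members met the rule in all 6. The cause was not tested. It was 125 with TMM, 154 without libraries below 100000 counts and, in settings chosen after seeing the data, 159 without the genes that follow Bc1 in the totals and 162 without the libraries of few Bc1 counts, of which 37 were members. Members were 78.2% of the genes transiently low or high, against 72.3% with TMM and 60.4% with Gm32262 kept. In the 3 MBH contrasts and the contrast of mid SD with the mean of LD and late SD in the other tissues, the number of members called stayed at 0 under each of the 18 alternatives (17 in the PVN). For mid SD against LD alone, no filter on low counts called 7 of 154 members in the DMH (1.49% of 21803 genes). In the pituitary gland it called 4 of 150 members (0.519% of 22370 genes), and for late against mid SD 1 (0.165%). The fits with the filter called 0 members there. The 0 also held with replicate number as a block. There 3, 2 and 9 members had an unadjusted p below 0.05 in the MBH contrasts in the order of the report (2.57%, 2.11% and 2.88% of all genes). The labels give the numbers as names of hamsters. Of 216 same-numbered pairs of MBH libraries, 62 had deviations correlated over 0.1 (lowest -0.39). The mean was 0.06 for same-numbered and -0.01 for differently numbered pairs. Replicate 4 libraries of the MBH had 9.27% to 19.9% of counts in Gm32262, against a median of 26.8% over all. What libraries of a number share was not tested, and the block was kept as an alternative. Without TMM the median of all genes was 0.38 (log2) at 24 against 20 weeks. Shallow libraries, with 5996 counts at the least, limit what a count of 0 shows.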
